A study of Homo sapiens with 12 samples.

Results

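The comparison of a hairpin against VHL with a control hairpin, each alone in HK-2 cells, was made up of 6 of the 12 RNA sequencing libraries of the series. They were chosen by their labels, 3 named shVHL61 and 3 named Luc976, and every gene with enough counts in the whole table was examined. HK-2 is an immortalised line of human proximal tubule epithelium. The shVHL61 cells carried a short hairpin RNA against VHL, and the Luc976 cells carried one whose name points to luciferase, which was therefore taken as the control. The other 6 libraries carried a hairpin against KIM-1 with the VHL hairpin (shVHL61-KIM1A1) or without it (shKIM1-A1). They were used for a second look at the same VHL hairpin. By the labels every VHL knockdown library carries that single hairpin, so effects of lower VHL and other effects of the hairpin cannot be told apart. All 4 groups are hairpin-bearing HK-2 cells, with 3 libraries each and no untransduced cells among them. The sources used here give neither the hairpin sequences nor the time after transduction, and do not say whether each group was a pool or a clone. They also leave unsaid whether the 3 libraries of a group came from separate cultures, so p-values measure the spread between these libraries, which may be technical.

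VHL is the substrate-recognition subunit of a cullin-2 ubiquitin ligase. In the presence of oxygen it binds the hydroxylated alpha subunits of the hypoxia-inducible factors (HIF) and marks them for breakdown, so that HIF target genes for glycolysis, angiogenesis and pH control stay low. Its loss in proximal tubule cells is the founding lesion of most clear cell kidney cancers, and VHL has also been tied to fibronectin deposition, the primary cilium and atypical substrates.

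The 6 libraries held 17094576 to 21089708 counts, and 16593 to 16787 of 26506 genes had a count. Of these, 14230 passed the filter on low counts and were tested. The first principal component of the 6 libraries took 46.0% of the variance and separated the groups, with scores of 17.2 to 24.1 in shVHL61 and -24.4 to -18.7 in Luc976. Libraries also stood apart by how their counts changed with the GC content of a transcript. At the largest gap in that slope they fell into set A (shVHL61 library 1 with Luc976 libraries 1 and 3) and set B (shVHL61 libraries 2 and 3 with Luc976 library 2), so the sets are spread unevenly over the groups. Across genes the log2 fold change ran against GC content (Spearman rho -0.37, n = 13479 tested genes with a GC value, which share these libraries), and the median GC content among them was 44.5% for genes that rose, 54.9% for genes that fell and 50.1% for all. Values within each set are given for VHL and 8 other genes.

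VHL mRNA was lower in every shVHL61 library. It had 39.3, 37.3 and 37.8 CPM (counts per 1e+06 counts of the library) in shVHL61 libraries 1, 2 and 3, against 52.8, 53.4 and 53.5 CPM in Luc976 libraries 1, 2 and 3. The groups did not overlap, and the lowest Luc976 library stood well above the highest shVHL61 library. The level in shVHL61 was 0.716 of that in Luc976, a log2 fold change of -0.48 (SE 0.06, edgeR adjusted p = 8.48e-05), with -0.43 within set A and -0.51 within set B. The hairpin thus left most of the transcript in place, at 16.1 ± 0.30 TPM (transcript share scaled by gene length) in shVHL61 and 22.8 ± 0.29 TPM in Luc976 (SD, n = 3 each). Among the 13 tested partners in the ligase and its regulation, 2 passed the test, VHL itself and UBE2F, a NEDD8-conjugating enzyme (0.34, adjusted p = 0.0132). That share of 15.4% lay near the 16.7% of all tested genes. The 2 calls were 1 without Luc976 library 1 or without shVHL61 library 2.

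The line was checked against markers of its tissue. Transcripts of the epithelial keratins were abundant, with KRT18 at 742 ± 41 TPM in shVHL61 and 665 ± 28 TPM in Luc976. Of 16 proximal tubule markers, 10 were under 1 TPM in all 6 libraries and SLC22A6, SLC22A8 and LRP2 were at 0, so the transporters that define the segment were largely absent from both groups. The summed level of the 16 markers was 344 to 376 TPM in shVHL61 and 472 to 518 TPM in Luc976, and most of that gap was CLDN2. Of 8 fibroblast markers COL1A2 was at 0, and the sum of 110 to 135 TPM in shVHL61 and 104 to 120 TPM in Luc976 was almost all lumican (LUM, 117 ± 15 against 97.3 ± 8.8 TPM). The endothelial sum stayed at or below 0.62 TPM in both groups, with KDR at 0. The immune sum was 147 to 155 TPM in shVHL61 and 132 to 138 TPM in Luc976, nearly all of it CD68, with CD3E at 0. In a bulk sample fewer cells of a type and less RNA per cell cannot be told apart.

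Knockdown of VHL was accompanied by many changes of small size. Of 14230 genes 2370 were called at an edgeR adjusted p below 0.05, which is 16.7% of those tested, 1026 of them higher (7.21%) and 1344 lower (9.44%). The median size of a called change was 0.39 on the log2 scale, and 72.1% of the calls were below 1.5-fold. Only 298 genes (2.09%) changed at least 2-fold, 60 higher (0.422%) and 238 lower (1.67%). The CPM of the 2 groups did not overlap for 2324 of the called genes, against 36% of all tested genes. The direction was the same in sets A and B for 2367 of the 2370. The sets are parts of the libraries that made the calls, so this was largely fixed by the selection. Over all genes with a value in both sets, the log2 fold changes correlated with Pearson's r of 0.45. Once trends with GC content and length had been removed, 2173 of the 2367 were also called in that direction, 908 higher and 1265 lower. The share of calls that were higher was 43.3%, against 28.0% with limma on log2(TPM + 1) and 47.8% with those trends removed. The count itself depends on single libraries, at 1391 without Luc976 library 1, 1339 without Luc976 library 3, 1336 without shVHL61 library 2 and 1346 without shVHL61 library 3. By the authors' deposited table, 1546 genes had a posterior probability of equal expression below 0.05, 1543 of them were tested here, and 1291 were called in the same direction.

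**Figure D1:**
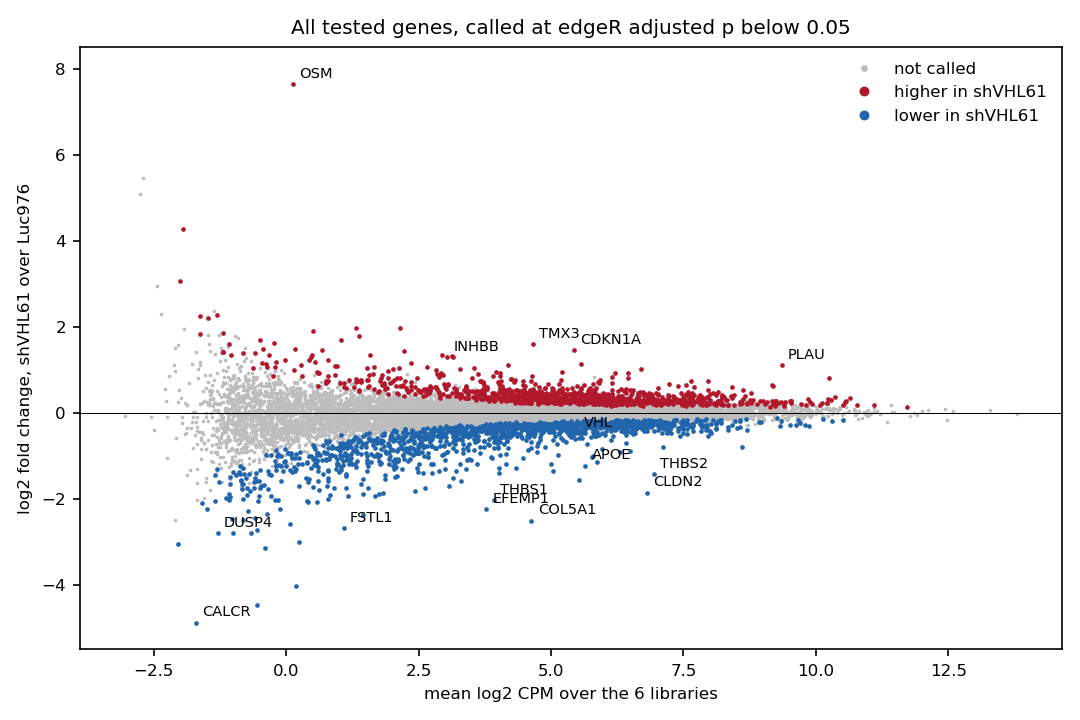
Log2 fold change of shVHL61 over Luc976 (vertical axis) against mean log2 CPM over the 6 libraries (horizontal axis), 1 point per tested gene, red where called higher, blue where called lower and grey where not called. Most called genes lie close to 0, OSM stands far above all other called genes, and 2 genes, SMN2 and ABHD14A-ACY1, lie outside the axes.

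Genes that HIF is known to drive did not rise as a group. Of 45 tested targets in 2 lists, 1 rose and 8 fell. In the list of HIF-1-type targets 1 of 24 rose and 5 fell (25.0% called, median log2 fold change -0.01), and in the list of HIF-2-type and shared targets 0 of 21 rose and 3 fell (14.3% called, median -0.05 on the log2 scale), beside a median of -0.01 and 16.7% called over all tested genes. The medians were 0.03 and -0.03 with GC and length trends removed. Many textbook targets stayed close to 0. VEGFA, the main angiogenic growth factor, differed by 0.05 on the log2 scale (adjusted p = 0.578), the HIF hydroxylase EGLN3 by -0.01 (adjusted p = 0.951), the peptide hormone ADM by 0.01 (adjusted p = 0.945) and the mitophagy receptor BNIP3 by -0.04 (adjusted p = 0.703).

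The promoters of 3 of the targets that fell are shown as examples that carry the core letters of the hypoxia response element, which HIF dimers bind. Each runs 5′ to 3′ along the gene's strand, from 250 bases before to 50 bases after the annotated start, from RefSeq on GRCh38.p14, with the core in capitals. The core was searched as ACGTG and as GCGTG on both strands, and overlapping matches were kept. LOX and IGFBP3 also fell and hold a core, while P4HA2 and MXI1 fell without one. CA9 (chr9:35673678-35673977, + strand) has ACGTG on the opposite strand, 18 bases before the start. PFKFB4 (chr3:48556754-48557053, - strand) has GCGTG on the gene's own strand 166 bases before the start. CA12 (chr15:63381797-63382096, - strand) has GCGTG on the opposite strand 234 bases before and again 39 bases after the start.
CA9: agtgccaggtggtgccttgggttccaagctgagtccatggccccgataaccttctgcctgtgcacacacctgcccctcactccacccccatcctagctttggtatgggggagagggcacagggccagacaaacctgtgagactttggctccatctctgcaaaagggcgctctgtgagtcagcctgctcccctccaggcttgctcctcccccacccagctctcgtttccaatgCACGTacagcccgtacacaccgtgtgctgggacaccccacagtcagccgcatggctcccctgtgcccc
PFKFB4: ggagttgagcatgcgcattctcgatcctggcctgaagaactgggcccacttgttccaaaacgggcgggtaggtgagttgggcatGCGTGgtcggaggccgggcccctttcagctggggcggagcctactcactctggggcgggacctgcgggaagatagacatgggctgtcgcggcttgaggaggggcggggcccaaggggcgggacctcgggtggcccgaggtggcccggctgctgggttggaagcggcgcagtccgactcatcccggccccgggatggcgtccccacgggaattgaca
CA12: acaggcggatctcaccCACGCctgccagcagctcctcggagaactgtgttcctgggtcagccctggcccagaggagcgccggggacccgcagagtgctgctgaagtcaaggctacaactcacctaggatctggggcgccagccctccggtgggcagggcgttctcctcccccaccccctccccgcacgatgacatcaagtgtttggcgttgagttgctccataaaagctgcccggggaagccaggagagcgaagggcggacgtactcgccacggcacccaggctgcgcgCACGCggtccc

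Either core was present in 30 of the 36 HIF targets with a promoter in the table (83.3%), against 63% of the 10549 tested genes with one and 48.4% of all 27305 promoters. The letters are therefore common, and a match is only a description of the window. ACGTG alone was present in 21 of the 36 targets (58.3%), against 26.6% of tested genes. Genes that rose and genes that fell held ACGTG at shares of 26.3% and 24.4%, close to that of all tested genes. SLC2A3 and OSM are named without a promoter.

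CA9 is a carbonic anhydrase of the cell surface that acidifies the medium and a standard marker of HIF activity. It had 2.04, 2.46 and 1.71 CPM in shVHL61 libraries 1 to 3, against 6.10, 5.78 and 6.36 CPM in Luc976. The groups were far apart, and CA9 fell by 1.55 on the log2 scale (SE 0.15, edgeR adjusted p = 4.36e-06), with -1.60 within set A and -1.46 within set B. Its level was low in both groups, at 2.67 ± 0.48 TPM in shVHL61 and 7.98 ± 0.29 TPM in Luc976. CA12, a related enzyme, was far more abundant, with 171, 179 and 177 CPM in shVHL61 and 240, 236 and 233 CPM in Luc976. It fell by 0.43 (SE 0.05, adjusted p = 1.55e-05), again with no overlap. PFKFB4, which makes an activator of glycolysis, had 34.2, 33.1 and 33.3 CPM in shVHL61 and 49.2, 46.1 and 49.5 CPM in Luc976. It fell by 0.53 (SE 0.07, adjusted p = 0.000112).

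The prolyl hydroxylase subunit P4HA2 fell by 0.36 (edgeR adjusted p = 0.00178), and the cross-linking enzyme LOX, the growth factor binder IGFBP3 and the MYC antagonist MXI1 fell by 0.34, 0.29 and 0.27 on the log2 scale. LOX was not called with limma on TPM, and IGFBP3 was not called within set A or without Luc976 library 3. The only riser was SLC2A3, the high-affinity glucose transporter GLUT3, with 90.6, 87.6 and 92.7 CPM in shVHL61 and 52.9, 56.2 and 59.1 CPM in Luc976. It was higher by 0.69 (SE 0.06, adjusted p = 1.14e-06), with 0.71 within set A and 0.68 within set B.

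**Figure D2:**
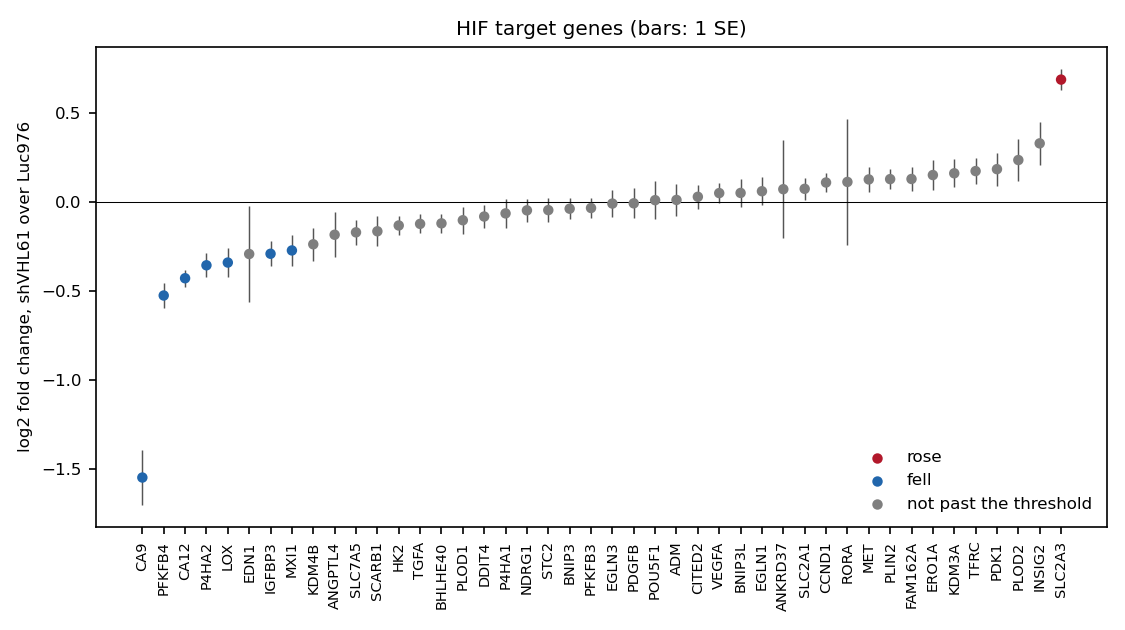
Log2 fold change of shVHL61 over Luc976 for 44 of the 45 tested HIF targets, ordered from the lowest to the highest, with bars of 1 SE. CA9 stands lowest at -1.55 and SLC2A3 highest at 0.69, 7 of those drawn fell (blue), 1 rose (red), and the grey genes did not pass the threshold.

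The machinery that senses oxygen changed in 3 of 12 tested members (25.0%, beside 16.7% of all tested genes). EPAS1, which encodes HIF-2 alpha, had 425, 403 and 411 CPM in shVHL61 and 357, 337 and 366 CPM in Luc976. The groups did not overlap, and it rose by 0.22 (SE 0.05, edgeR adjusted p = 0.00728). HIF1A had 1040, 1180 and 1168 CPM in shVHL61 and 1022, 1069 and 940 CPM in Luc976, which overlap, and its difference of 0.16 did not pass (adjusted p = 0.204). ARNT2, a dimer partner of the alpha subunits, had 1.51, 1.40 and 1.40 CPM in shVHL61 and 4.95, 4.15 and 4.58 CPM in Luc976. It fell by 1.66 (SE 0.18, adjusted p = 1e-05). ARNT, another such partner, was far more abundant, with summed counts of 2176 in shVHL61 and 1839 in Luc976, against 86 and 253 for ARNT2. The ARNT difference of 0.14 did not pass (adjusted p = 0.19). The hydroxylase EGLN2 fell by 0.29 (adjusted p = 0.0334), a call that was lost in 5 of 18 alternatives. Among genes of glycolysis and glycogen 2 of 23 rose and 4 fell (26.1% called). They were led by the liver glycogen phosphorylase PYGL (0.30, adjusted p = 0.000316) and the phosphoglycerate mutase PGAM1 (-0.20, adjusted p = 0.00634). Those 6 calls became 3 without Luc976 library 1, 3 without Luc976 library 3, 2 without shVHL61 library 2 and 3 without shVHL61 library 3. In the respiratory chain 1 of 30 members passed, NDUFV2, a subunit of complex I (0.19, adjusted p = 0.0422), and that count was 0 without Luc976 library 1 or 3 or shVHL61 library 2 or 3, 5 without Luc976 library 2 and 4 without shVHL61 library 1.

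The gene with the largest called rise was OSM, oncostatin M, a cytokine of the interleukin-6 family. It had 193, 157 and 157 counts in shVHL61 libraries 1 to 3, against 1, 0 and 1 counts in Luc976 libraries. Summed counts were 507 and 2, so that OSM was 235 times as high in shVHL61 (95% interval 64.8 to 1950 from counting error only). OSM reached 9.06 ± 0.79 TPM in shVHL61, against 0.040 ± 0.035 TPM in Luc976. The authors' deposited table gives it a fold of 143. The chains that receive OSM, OSMR (0.04, adjusted p = 0.72) and IL6ST (0.20, adjusted p = 0.299), did not pass, nor did the signal transducer STAT3 (0.09, adjusted p = 0.205) or its feedback inhibitor SOCS3 (-0.06, adjusted p = 0.683).

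The list of OSM and interleukin-6 family signalling, which holds receptors, signal transducers and target genes as well as cytokines, had 3 of 26 members higher and 7 lower (38.5% called). The 3 that rose were OSM itself, IL6 and the target gene LRG1 (0.81, edgeR adjusted p = 0.000447). IL6 had 35.9, 41.9 and 41.4 CPM in shVHL61, against 28.3, 25.9 and 25.8 CPM in Luc976, and rose by 0.58 (SE 0.08, edgeR adjusted p = 6.83e-05), with 0.41 within set A and 0.68 within set B. IL11, a relative that acts on epithelium and fibroblasts, had 8.75, 6.32 and 7.55 CPM in shVHL61, against 17.9, 13.5 and 16.4 CPM in Luc976, and fell by 1.08 (SE 0.12, adjusted p = 1.63e-05). Neither gene overlapped between groups. IL31RA, which pairs with OSMR in the receptor for interleukin-31, fell by 0.78 (edgeR adjusted p = 0.000337).

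Chemokine and NF-kB genes rose more often than they fell, with 8 of 26 higher and 1 lower (34.6% called, median 0.08 on the log2 scale). CXCL8, the neutrophil chemokine interleukin-8, had 90, 109 and 107 CPM in shVHL61 and 50, 58.6 and 52.0 CPM in Luc976. It rose by 0.93 (SE 0.08, edgeR adjusted p = 1.08e-06), with 0.83 within set A and 0.88 within set B. The apoptosis inhibitor BIRC3 had 82.6, 100 and 102 CPM in shVHL61 and 50.6, 57.8 and 50.9 CPM in Luc976 and rose by 0.84 (adjusted p = 3.41e-05). The macrophage growth factor CSF1 rose by 0.44 and mitochondrial superoxide dismutase SOD2 by 0.29, whereas the chemokine CXCL5 fell by 1.12 (adjusted p = 5.84e-05). Of 25 interferon-stimulated genes 4 rose and 1 fell. Among them IFI44L rose by 0.51 (adjusted p = 0.000186). The 5 interferon calls were 3 without Luc976 library 1, and the 9 chemokine calls stayed at 7 or 8 without any 1 library. The immune marker sum given above was higher in shVHL61 as well, and its part in these rises was not tested.

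Genes of the extracellular matrix fell more often than they rose. Of 26 elastic fibre and matricellular genes 3 rose and 13 fell (61.5% called, median -0.24 on the log2 scale), and of 23 collagens 0 rose and 7 fell (30.4% called, median -0.16). COL5A1, a collagen that nucleates fibrils, had 11.8, 9.78 and 9.52 CPM in shVHL61, against 62.8, 51.3 and 63.6 CPM in Luc976. It fell by 2.51 (SE 0.12, edgeR adjusted p = 7.51e-10), and by 2.42 within set A and 2.41 within set B. COL1A1 had 24.4, 20.1 and 23.3 CPM in shVHL61 and 41.8, 34.3 and 41.5 CPM in Luc976, a fall of 0.79 (SE 0.09, adjusted p = 2.57e-05). Its fibril partner COL1A2 was at 0 in all 6 libraries. COL4A5, a chain of basement membrane collagen, fell by 1.39 (adjusted p = 9.18e-07) and COL12A1, which decorates fibrils, by 0.54 (adjusted p = 9.23e-05).

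The fibrillins, the rods of elastic microfibrils, fell together. FBN1 had 19.9, 20.2 and 21.5 CPM in shVHL61 and 53.8, 53.2 and 49.5 CPM in Luc976, and FBN2 had 65.4, 68.3 and 64.7 CPM in shVHL61 and 121, 124 and 122 CPM in Luc976. Both sets of values were tight and far apart, with falls of 1.35 (SE 0.09, edgeR adjusted p = 4.92e-08) and 0.89 (SE 0.05, adjusted p = 1.24e-08). The fibulins EFEMP1 and FBLN2, which bind elastic fibres, fell by 2.24 and 1.40, with EFEMP1 at 5.69, 6.52 and 6.47 CPM in shVHL61 and 30.1, 29.2 and 29.1 CPM in Luc976. Of 3 tested thrombospondins, a family of matricellular proteins, 2 fell. THBS1 had 7.97, 8.02 and 6.26 CPM in shVHL61 and 30.9, 30.6 and 30.2 CPM in Luc976 (-2.04, adjusted p = 8.86e-10). THBS2 had 78.2, 70.9 and 74.6 CPM in shVHL61 and 214, 190 and 199 CPM in Luc976 (-1.43, adjusted p = 9.85e-10). The third, THBS3, had 116, 111 and 111 CPM in shVHL61 and 98.3, 98.2 and 103 CPM in Luc976, and its difference of 0.17 did not pass (adjusted p = 0.0658). Fibronectin (FN1), the most abundant of the matrix genes named here at 3129 ± 81 TPM in shVHL61 and 3272 ± 27 TPM in Luc976, differed by -0.04 and did not pass (adjusted p = 0.604). Leaving out any 1 library left 13 to 16 calls in the elastic fibre list and 6 to 9 among the collagens. In a wider list of 12 fibroblast markers 4 of the 6 tested members fell, among them COL1A1, already counted above, and decorin (DCN, -0.91). PDGFRB and ACTA2 fell from low summed counts, 63 to 25 and 84 to 48 from Luc976 to shVHL61. The ACTA2 call was lost in 9 of 18 alternatives. LUM, almost all of the fibroblast marker sum, differed by 0.29 and did not pass (adjusted p = 0.0572). The part of other cells in these falls was not tested.

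Surface and basement membrane components did not all follow. The glypican GPC4, a heparan sulphate proteoglycan, had 3.35, 2.96 and 3.47 CPM in shVHL61 and 10.6, 10.9 and 11.6 CPM in Luc976, with no overlap, and fell by 1.76 (edgeR adjusted p = 7.29e-08). The syndecan SDC2 rose by 0.40 (adjusted p = 0.000431), while SDC3 fell by 0.43 (adjusted p = 0.000362). Of 16 laminins and basement membrane genes 2 rose and 3 fell (31.2% called). LAMA3, a laminin alpha chain, had 150, 154 and 162 CPM in shVHL61 and 123, 120 and 122 CPM in Luc976, without overlap, and rose by 0.35 (SE 0.06, adjusted p = 0.00068). The linker nidogen NID1 fell by 0.47 (adjusted p = 4.15e-05). Of 17 integrins 3 rose and 4 fell (41.2% called). They were led by the leukocyte integrin chain ITGB2 (1.01, adjusted p = 0.000113) and by ITGB8 (-1.35, adjusted p = 3.11e-06), an activator of latent TGF-beta. The 7 integrin calls were 4 without Luc976 library 1 and 4 without shVHL61 library 3.

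Enzymes that cut or modify matrix changed in both directions. PLAU, urokinase, had 981, 941 and 961 CPM in shVHL61 and 452, 430 and 455 CPM in Luc976. It was the most abundant of the 16 largest rises, at 791 ± 13 TPM in shVHL61 and 373 ± 7.0 TPM in Luc976, and rose by 1.11 (SE 0.05, edgeR adjusted p = 8.86e-10), with 1.12 within set A and 1.14 within set B. The gelatinase MMP9 had 22.5, 18.7 and 18.6 CPM in shVHL61 and 10.8, 10.8 and 11.6 CPM in Luc976 (0.85, adjusted p = 0.000127), and matrilysin MMP7 rose by 0.40 (adjusted p = 0.000192). In all, 3 of 22 proteases and inhibitors rose and 9 fell (54.5% called, median -0.16 on the log2 scale), among them the inhibitor TIMP2 (-0.33, adjusted p = 0.00019). Of 21 collagen-processing genes only P3H2, a prolyl 3-hydroxylase, rose (0.74, SE 0.05, adjusted p = 1.32e-07), and 5 fell (28.6% called).

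**Figure D3:**
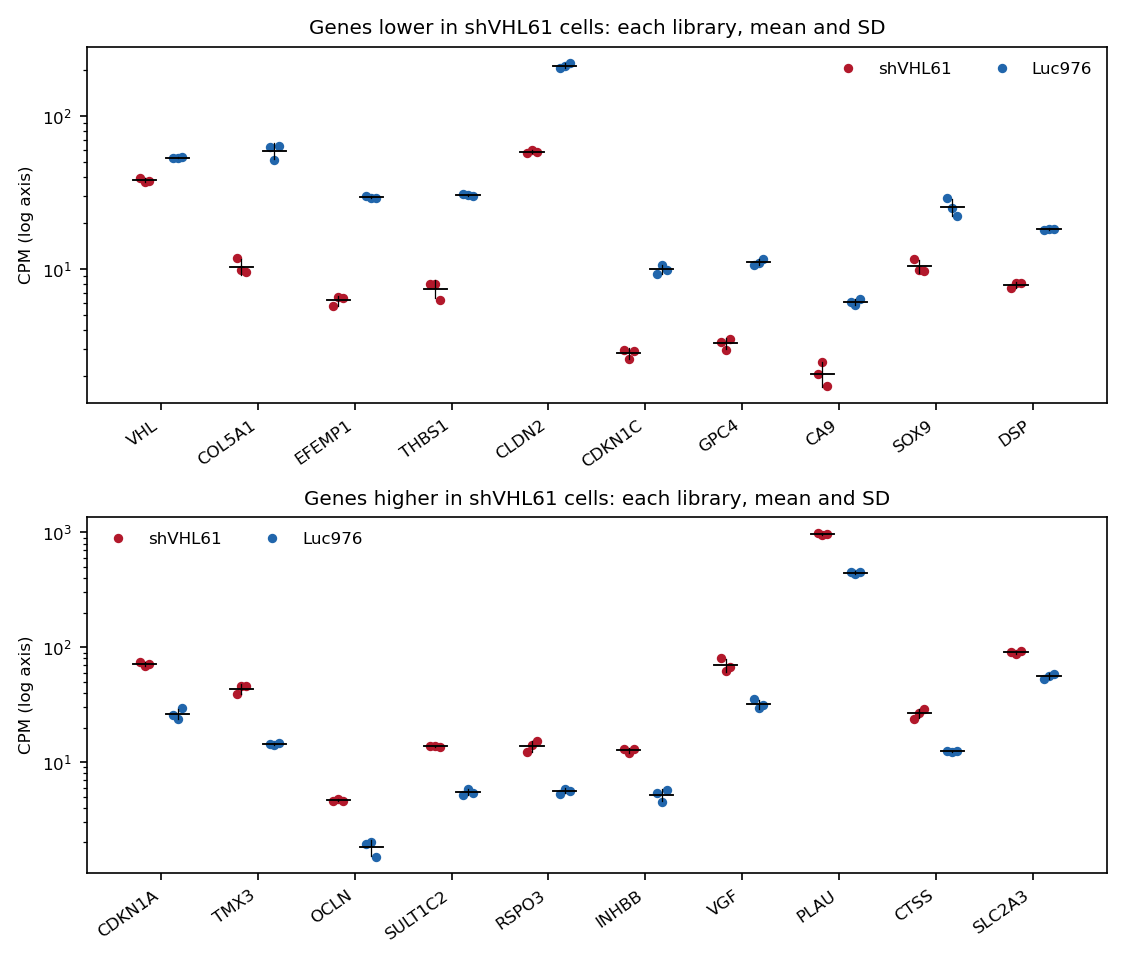
CPM of each library on a log axis for 10 genes that fell (upper panel) and 10 that rose (lower panel), with shVHL61 in red on the left and Luc976 in blue on the right of each pair, and black lines for mean and SD. The groups do not overlap for any of the 20 genes, which the naming rule required of those among the largest changes. CLDN2 falls to about 58 CPM in shVHL61 cells, against 206 to 221 CPM in Luc976 cells.

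TGF-beta and activin signalling held 3 rises and 9 falls among 27 tested genes (44.4% called, median -0.08 on the log2 scale). INHBB, the beta B subunit of activin, had 13.0, 11.9 and 13.1 CPM in shVHL61 and 5.42, 4.51 and 5.71 CPM in Luc976, and rose by 1.28 (SE 0.14, edgeR adjusted p = 1.08e-05). TGFBR1, the type I receptor, rose by 0.74 (adjusted p = 0.00069). FSTL1, a secreted follistatin-like glycoprotein, had 0.535, 0.853 and 0.983 CPM in shVHL61 and 4.84, 5.67 and 4.76 CPM in Luc976 and fell by 2.69 (SE 0.20, adjusted p = 2.25e-07). The pseudoreceptor BAMBI, which dampens TGF-beta signals, fell by 1.17 and the coreceptor TGFBR3 by 0.92. The Wnt list held 5 rises and 6 falls among 26 (42.3% called). RSPO3, which amplifies Wnt signals, had 12.2, 14.0 and 15.2 CPM in shVHL61 and 5.31, 5.88 and 5.65 CPM in Luc976 (1.30, adjusted p = 4.44e-06). RNF43, the ligase that R-spondins restrain, rose by 0.66. WNT5A, a ligand of the beta-catenin-independent branch, fell by 1.35 (adjusted p = 4.33e-07), the antagonist DKK1 by 2.07 (adjusted p = 4.67e-05) and AXIN2, a target of beta-catenin, by 0.95 (adjusted p = 0.000355).

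Junction genes were led by a fall of CLDN2, a claudin that forms a cation pore between proximal tubule cells. It had 57.5, 59.6 and 58.4 CPM in shVHL61 and 206, 212 and 221 CPM in Luc976. Among the 16 largest falls it had the smallest adjusted p, with a fall of 1.86 (SE 0.06, edgeR adjusted p = 8.57e-12), and the values within sets A and B were -1.88 and -1.85. Occludin (OCLN), a low-abundance strand protein here, had 4.62, 4.76 and 4.55 CPM in shVHL61 and 1.95, 2.03 and 1.49 CPM in Luc976 (1.34, adjusted p = 3.28e-05). Its mean was also raised in shKIM1-A1, which lacks the VHL hairpin, at 4.23 CPM against 1.82 CPM in Luc976. CLDN1, a sealing claudin, rose by 0.53 (adjusted p = 0.00019), whereas JAM3 and the cingulin relative CGNL1 fell by 0.64 and 0.49 on the log2 scale. In total 3 of 23 tight junction genes rose and 5 fell (34.8% called). Desmoplakin (DSP), which anchors keratin at desmosomes, had 7.48, 8.12 and 8.07 CPM in shVHL61 and 18.0, 18.3 and 18.3 CPM in Luc976 (-1.20, adjusted p = 5.01e-07). The kidney cadherin CDH6 fell by 0.48, and EPCAM and the placental cadherin CDH3 rose by 0.45 and 0.55. SNAI2, a repressor tied to mesenchymal change, fell by 0.89 (adjusted p = 0.00128). Markers of epithelial and of mesenchymal state thus changed in both directions, 6 up and 5 down of 25 (44.0% called).

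Kidney lineage and repair factors fell in 5 of 14 tested members and rose in 0 (35.7% called). SOX9, a factor of tubular repair, had 11.6, 9.83 and 9.72 CPM in shVHL61 and 28.9, 25.2 and 22.2 CPM in Luc976, without overlap, and fell by 1.29 (SE 0.11, edgeR adjusted p = 5.2e-07). IRX3, a nephron patterning factor, fell by 0.47 (adjusted p = 0.00112). Among proximal tubule genes the peptidases split, with neprilysin MME lower by 0.58 (adjusted p = 0.00566) and dipeptidyl peptidase DPP4 higher by 0.34 (adjusted p = 0.0073). PAX8, a nephron lineage factor, differed by -0.18 (adjusted p = 0.0669) at 153 ± 5.1 TPM in shVHL61 and 176 ± 11 TPM in Luc976. Tubular injury genes were called in both directions, 7 higher and 6 lower of 22 (59.1% called). HAVCR1 itself, which encodes KIM-1, differed by 0.25 and did not pass (adjusted p = 0.101).

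Growth control was marked by opposed changes of 2 cyclin-dependent kinase inhibitors. CDKN1A, which encodes p21, had 74.5, 68.1 and 71.5 CPM in shVHL61 and 25.6, 23.9 and 29.4 CPM in Luc976, and rose by 1.44 (SE 0.08, edgeR adjusted p = 1.13e-08), with 1.45 within set A and 1.55 within set B. CDKN1C, which encodes p57, had 2.96, 2.56 and 2.90 CPM in shVHL61 and 9.31, 10.6 and 9.81 CPM in Luc976, and fell by 1.82 (SE 0.13, adjusted p = 1.5e-07). Neither overlapped between groups, which was a condition for naming both among the largest changes. CDKN1A was the only riser among 25 p53 targets and cell-cycle inhibitors, of which 6 fell (28.0% called). Its rise was thus not shared by the list. Those 7 calls were 3 without Luc976 library 1, 3 without shVHL61 library 2 and 4 without shVHL61 library 3. Of 30 DNA replication genes 3 rose, led by thymidylate synthase TYMS (0.46, adjusted p = 9.02e-06), and of 30 mitotic genes 2 rose, led by the cytokinesis scaffold ANLN (0.52, adjusted p = 0.000217), with 0 falls in either list. These 3 and 2 calls were both 1 without Luc976 library 1 or 3 or shVHL61 library 2 or 3, replication stood at 5 without Luc976 library 2 or shVHL61 library 1, and mitosis at 6 without Luc976 library 2 and 4 without shVHL61 library 1. In both lists the share called lay below the 16.7% of all tested genes.

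Lipid synthesis genes fell more often than they rose. Of 23 cholesterol synthesis genes 8 fell and 0 rose (34.8% called, median -0.12 on the log2 scale), each by less than 0.4, with the regulator SREBF2 at -0.33 (edgeR adjusted p = 0.000943). The 8 calls became 3 without Luc976 library 1, 4 without Luc976 library 3, 4 without shVHL61 library 2 and 3 without shVHL61 library 3. Of 20 fatty acid synthesis genes 3 rose and 7 fell, with malic enzyme ME1 higher by 0.54 and the desaturase SCD5 and elongase ELOVL6 lower by 0.57 and 0.39, and these 10 calls were 6 without any one of the same 4 libraries. The apolipoprotein APOE stood out in size, with 35.6, 31.0 and 31.2 CPM in shVHL61 and 80.5, 70.0 and 79.7 CPM in Luc976, and fell by 1.23 (SE 0.09, adjusted p = 1.99e-07). The lipoprotein receptor VLDLR fell by 0.38 (adjusted p = 0.00198).

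**Figure D4:**
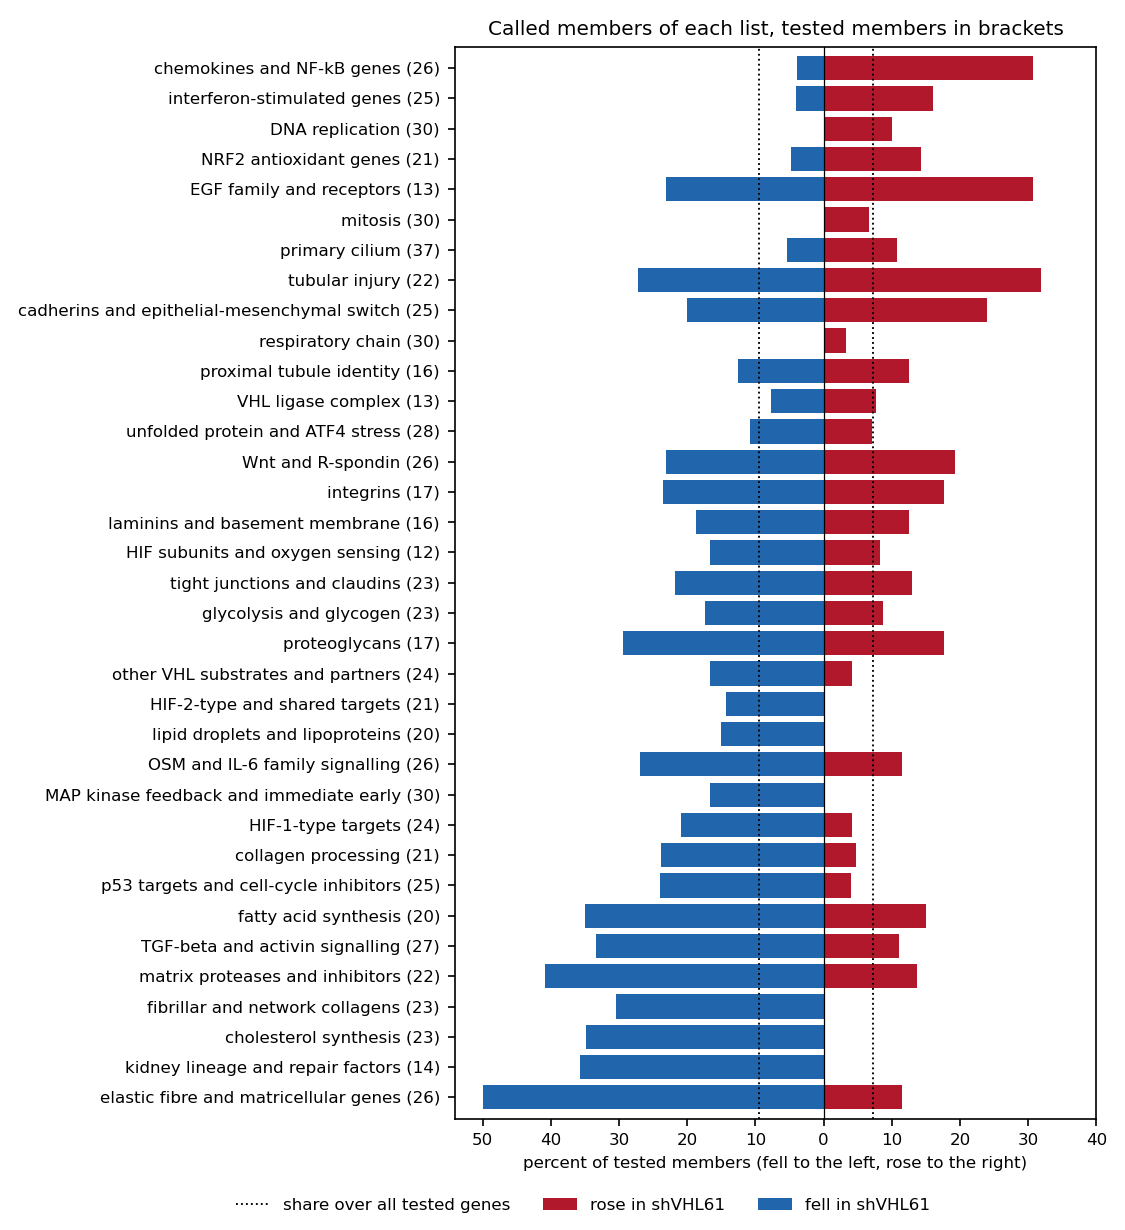
Percent of tested members that rose (red, to the right) or fell (blue, to the left) in shVHL61 against Luc976 for the 35 lists with at least 12 tested members, with dotted lines at the shares over all tested genes (7.21% higher, 9.44% lower). Elastic fibre and matricellular genes lie furthest to the falling side, and chemokines and NF-kB genes have the largest excess of rises over falls.

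Among the largest changes outside these pathways, the oxidoreductase TMX3 of the endoplasmic reticulum had 38.8, 45.8 and 46.0 CPM in shVHL61 and 14.4, 14.1 and 14.7 CPM in Luc976 (1.59, SE 0.15, edgeR adjusted p = 1.92e-06). The neurosecretory protein gene VGF had 80.1, 62.3 and 67.7 CPM in shVHL61 and 35.2, 29.5 and 31.1 CPM in Luc976 (1.13, adjusted p = 6e-06). Both were about 2-fold to 3-fold higher, and no overlap of groups was a condition for naming them among the largest changes. The lysosomal protease CTSS rose by 1.10, the blood-lineage factor TAL1 by 1.03 and the sulphotransferase SULT1C2 by 1.33. C9orf84 had 7.34, 9.03 and 9.41 CPM in shVHL61 and 2.21, 2.48 and 1.90 CPM in Luc976 (1.95, adjusted p = 5e-06), while SCEL, SLC22A31 and TMEM255B rose by 1.15, 1.03 and 1.01 on the log2 scale. On the falling side the Src-family kinase FYN had 4.47, 5.17 and 5.85 CPM in shVHL61 and 14.2, 14.6 and 15.7 CPM in Luc976 (-1.52, adjusted p = 1.97e-07). The guidance and adhesion genes SEMA5A and FLRT2 fell by 1.42 and 1.48 on the log2 scale, and LYPD1, a surface protein of the Ly6 family, by 1.58. VWA1, an extracellular matrix protein gene, had 4.47, 4.41 and 4.86 CPM in shVHL61 and 15.8, 13.9 and 15.0 CPM in Luc976 (-1.70, adjusted p = 3.96e-07). CALCR, the calcitonin receptor, had 0, 1 and 0 counts in shVHL61 and 11, 15 and 12 counts in Luc976, so that it was 40.9 times as high in Luc976 (95% interval 6.92 to 1660 from counting error only). RBM24, an RNA-binding protein gene, had 1, 0 and 0 counts in shVHL61 and 11, 17 and 6 counts in Luc976. The readthrough ABHD14A-ACY1 had 30 counts in Luc976 library 2 and 0 in the other 5 libraries, and its reads overlap both parent genes. SMN2 had 238 counts in shVHL61 library 3 and 0 in the other 5 libraries. It shares nearly all its sequence with SMN1, so this value is uncertain, and SMN1 differed by -0.03 (adjusted p = 0.934). MT1L (1.43) and SFTA1P (1.34) are also among the largest rises, with reads that near copies can share.

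The VHL hairpin was examined a second time in cells with the KIM-1 hairpin, as shVHL61-KIM1A1 against shKIM1-A1, which shares no library with the first pair. VHL fell there by 0.52 (edgeR adjusted p = 9.02e-06), and this effect did not pass a test of difference from the first (adjusted p = 0.844). In that pair 5976 genes were called, which is 42% of those tested, and 50.1% of them were higher. With limma on log2(TPM + 1), which moved the median of all genes by -0.15, the higher share was 20%. Of the 2370 genes called in the first pair, 1525 were also called in the second, 1335 in the same direction, which is 56.3% of the first list and 22.3% of the second, and 190 in the opposite direction. Among the 298 genes that changed at least 2-fold in the first pair, 209 were called in the same direction and 19 in the opposite direction. The difference between the effects was itself called for 2811 genes (19.8%), 1457 of them higher (10.2%) and 1354 lower (9.52%) with the KIM-1 hairpin, among them 867 of the 2370, or 36.6%. Across all 14230 genes the effects correlated with Pearson's r of 0.43, as a description of genes that share libraries.

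Some of the strongest changes were of like size in both pairs. OSM had summed counts of 716 in shVHL61-KIM1A1 and 3 in shKIM1-A1, and its difference between pairs did not pass (adjusted p = 0.951). CLDN2 fell by 1.69 in the second pair (difference 0.17, adjusted p = 0.163), SLC2A3 rose by 0.77 (difference 0.08, adjusted p = 0.564) and CXCL8 rose by 0.83 (difference -0.09, adjusted p = 0.609). RSPO3, SULT1C2, TAL1 and FSTL1 also moved the same way, at 1.62, 1.39, 1.06 and -3.01 on the log2 scale. Other genes did not. CA9 fell by 1.55 in the first pair and rose by 1.55 in the second (difference 3.10, adjusted p = 4.36e-08). HIF-1-type targets had a median of 0.37 on the log2 scale in the second pair, beside 0.00 over all genes. There 16 of 24 rose and 1 fell, and the difference between pairs was called for 14. Chemokine and NF-kB genes had 8 of 26 higher and 8 lower in the second pair, with 11 called differences. Cholesterol synthesis had 8 of 23 higher and 2 lower there, with 9 called differences. Elastic fibre and matricellular genes had 10 of 26 higher and 13 lower, with 20 called differences. Collagens had 4 of 23 higher and 8 lower, with 7 called differences. COL1A1 and CDKN1C fell in the first pair but differed by 0.19 and -0.11 in the second (adjusted p = 0.123 and 0.565), and the difference was called for each (0.98 and 1.71). CDKN1A rose by 0.24 in the second pair, less than in the first (difference -1.20, adjusted p = 2.85e-06), and INHBB rose by 5.66, more than in the first (difference 4.38, adjusted p = 1.43e-08).

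**Figure D5:**
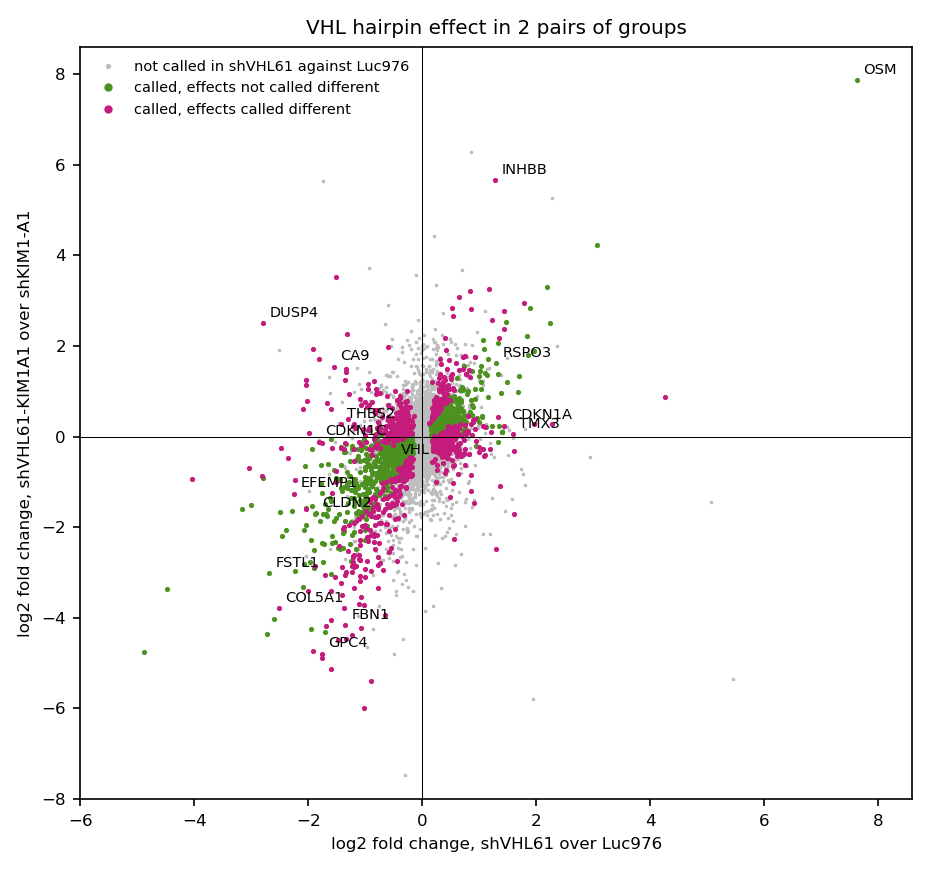
Log2 fold change of shVHL61-KIM1A1 over shKIM1-A1 (vertical axis) against that of shVHL61 over Luc976 (horizontal axis), 1 point per tested gene, green where called in the first pair without a called difference, magenta where the difference is called and grey where not called in the first pair. OSM lies high in both, CA9 and DUSP4 lie in the upper left with opposite signs, and SMN2 and ABHD14A-ACY1 are outside the axes. DUSP4 had summed counts of only 6 in shVHL61 and 41 in Luc976.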

How the data were processed

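RNA was taken with Trizol and made into Illumina TruSeq libraries, per the labels' protocols. The deposited table gives expected counts per gene symbol, estimated reads that need not be whole, per the file headers. TPM values, scaled by the authors within each library, and FPKM values, also the authors' per the file headers, stand beside them. The FPKM values were not used. The authors' deposited table adds a fold relative to Luc976 for each of the other groups, and a column headed PPEE, read as EBSeq's probability that groups are equal. Bowtie 0.12.2 and the mouse builds mm9 and mm8 appear in the submitters' processing notes without a role, although the gene symbols are human. No source used here names the human build, annotation or quantifier.

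Expected counts were rounded, genes were kept by filterByExpr (minimum count 10), and libraries were scaled by TMM (factors 0.976 to 1.05). One edgeR 4.0.16 quasi-likelihood model (R 4.3.3) of 4 groups and 12 libraries gave all contrasts, with 8 residual degrees of freedom, a biological coefficient of variation of 6.8%, two-sided tests and Benjamini-Hochberg adjustment over all 14230 genes. The SE is the log2 fold change divided by the square root of F. CPM uses TMM-scaled library sizes. Alternatives used DESeq2 1.42.0, limma 3.58.1 on TPM, other scaling and filters, GC and length trends removed by splines, the GC set as a term, values within a set, and leaving out each library in turn. GC content and length were medians over the GENCODE transcripts of a gene, protein-coding ones where it had any. GC values covered 94.7% of tested genes. The fits were tested on simulated counts with known changes.

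The text names VHL and draws its other genes from the 16 largest rises and 16 largest falls among called genes with a mean log2 CPM of 2 or more and no overlap of groups, from up to 5 members of each of 40 gene lists with the smallest p, from ligase and oxygen-sensing genes, and from genes with at most 3 counts in 1 group and at least 0.5 CPM in the other. A few well-known list members outside this rule, and markers, were named after their values were seen. The groups, lists and rules were chosen with earlier results of these data known. The lists are described by counts and medians, with no test of a list. Some members of the lists are counted but not reported here by name.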

Additional observations from a re-analysis of the deposited data

Results flagged for a closer look

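The effect of the VHL hairpin differed between cells with and without the KIM-1 hairpin for 2811 of 14230 genes, by the interaction test of edgeR at an adjusted p below 0.05. Among the genes named by the rule, 36 were called in opposite directions in the 2 pairs or were among the 32 largest changes with a called difference. Values below are the effect with the KIM-1 hairpin minus the effect without it, on the log2 scale.

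Of the genes that rose in shVHL61 against Luc976, the effect with the KIM-1 hairpin was lower for the aminopeptidase ANPEP (-3.32), MMP9 (-2.04), TMX3 (-1.53), CDKN1A (-1.20), CLDN1 (-1.04), PLAU (-0.90), MGAT4A (-0.83), IL6 (-0.80), ITGB3 (-0.75), LAMA3 (-0.64) and the growth factor receptor EGFR (-0.45). Among these, ANPEP (-1.70), MMP9, CLDN1, IL6, ITGB3, LAMA3 and EGFR were called lower in the second pair, a reversal. CDKN1A (0.24) and PLAU (0.21) were still called higher there, and TMX3 (0.06) did not pass. The effect with the KIM-1 hairpin was higher for INHBB (4.38), MT1L (0.95) and SFTA1P (0.84). Mean CPM in Luc976, shVHL61, shKIM1-A1 and shVHL61-KIM1A1 was 14.4, 43.5, 39.3 and 41.1 for TMX3 and 446, 961, 664 and 765 for PLAU. In the same order CDKN1A had 26.3, 71.4, 102 and 121 CPM. For TMX3, PLAU and CDKN1A the mean of shKIM1-A1 was above that of Luc976, whereas for INHBB, MT1L and SFTA1P it was below. ANPEP was near the floor, with summed counts of 80 in shVHL61 and 24 in Luc976.

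Of the genes that fell in shVHL61 against Luc976, the effect with the KIM-1 hairpin was less negative or positive for the phosphatase DUSP4 (5.31), CA9 (3.10), the procollagen protease ADAMTS2 (1.79), THBS2 (1.71), CDKN1C (1.71), ATF3 (1.36), COL11A1 (1.35), EFEMP1 (0.99), PLXDC2 (0.75), LOX (0.63), CDKN2A (0.59), FYN (0.52), TIMP2 (0.50), THBS1 (0.44), the hexokinase HK1 (0.39) and LYPD1 (0.33). It was more negative for GPC4 (-3.03), FLRT2 (-3.01), FBLN2 (-2.10), SEMA5A (-1.46), COL5A1 (-1.27) and COL4A5 (-0.64). DUSP4 was near the floor, with summed counts of 6 in shVHL61 and 41 in Luc976. Its log2 fold change in the first pair ranged from -3.71 to -0.27 over the alternatives. A called difference was also found for 64 other named genes.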

How the results depend on the processing

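Of 171 called genes named by the rule, 123 kept their call in all 18 alternatives, 48 lost it in at least 1, and 0 changed direction. VHL stayed called and between -0.50 and -0.47 on the log2 scale with any 1 library left out. The count of 2370 calls for shVHL61 against Luc976 was 2918 in a fit of these 6 libraries alone, 2426 with DESeq2, 2364 with RLE factors, 2397 with no filter, and 2111 and 2101 with limma on TPM with pseudocounts of 1 and 0.1. It was 3768 with GC and length trends removed and 4080 with the GC set as a term. Within set A it was 2058 and within set B 2205, where a lone library is assumed to vary like the others. Leaving out 1 library gave 1336 to 2490. The count for the second pair, 5976, ranged from 5339 (within set B) to 7939 (set as a term). The count of differences between the pairs, 2811, was 4615 with GC and length trends removed, 4764 with the set as a term and 2109 to 2516 with 1 library left out.

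The replicate numbers were not taken to pair the libraries, since no label ties them to a shared culture or day and not every correlation between deviations of same-numbered libraries (0.125, 0.105 and -0.04) was above 0.1. As a hint from the data, 4 of 6 libraries correlated best with their own number. With the replicate number as a block the counts were 1732 for the first pair, 5448 for the second and 2241 for the difference. The block with GC and length trends removed gave 3535, 7316 and 4395. The cause of these shifts was not tested.

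Limits: 3 libraries a group, an unstated culture design, GC sets spread unevenly over groups, and 17094576 to 21089708 counts a library, so small changes of low genes were not detectable. Both pairs rest on a single VHL hairpin, and effects of it other than on VHL were not tested.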

Other observations

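Some of the largest changes were in genes of low abundance, below the level set for naming, and were picked after their values were seen. SFRP2, a secreted Wnt modulator, had 0.194, 0 and 0.103 CPM in shVHL61 and 2.42, 2.33 and 2.38 CPM in Luc976 (log2 fold change -4.48, SE 0.42). GDF6, a ligand of the bone morphogenetic protein family, had 0.146, 0.150 and 0.414 CPM in shVHL61 and 3.68, 3.80 and 4.40 CPM in Luc976 (-4.04, SE 0.30). In both genes the libraries of shVHL61 all lay far below those of Luc976. On the rising side, thrombomodulin THBD, an anticoagulant receptor, had 5.30, 4.16 and 4.66 CPM in shVHL61 and 1.37, 1.27 and 0.952 CPM in Luc976 (1.96, SE 0.18). IL24, a cytokine of the interleukin-10 family, had 5.30, 4.21 and 4.66 CPM in shVHL61 and 0.789, 1.57 and 1.78 CPM in Luc976 (1.78, SE 0.25), again without overlap.

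Growth factor lists and stress lists differed in how many members were called, beside 16.7% of all tested genes. In the EGF family 53.8% were called, and 4 of 13 rose, led by neuregulin NRG1 (0.50, edgeR adjusted p = 3.64e-05), and 3 fell, led by EGF (-1.19, adjusted p = 0.0032) and epiregulin EREG (-0.32, adjusted p = 0.011). Those 7 calls were 4 without shVHL61 library 2 or 3. Of 30 MAP kinase feedback and immediate early genes 0 rose and 5 fell (16.7% called). They were led by JUND (-0.60, adjusted p = 0.000387) and DUSP4 (-2.80, adjusted p = 0.00126). The 5 calls were 3 without Luc976 library 1, 2 without Luc976 library 3, 3 without shVHL61 library 2 and 2 without shVHL61 library 3. Among 28 unfolded protein and ATF4 stress genes 2 rose and 3 fell (17.9% called), led by ATF3 (-0.77, adjusted p = 0.000583). These 5 calls were 3 without Luc976 library 1 or 3 or shVHL61 library 2 or 3. Of 21 NRF2 antioxidant genes 3 rose, among them thioredoxin reductase TXNRD1 (0.39, adjusted p = 8.24e-05), and 1 fell (19.0% called).

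Other reported VHL substrates and primary cilium genes are tied to VHL by routes other than HIF. Their shares called were 20.8% and 16.2%, beside 16.7% of all tested genes. Of 24 other reported substrates and partners 1 rose and 4 fell, and these 5 calls were 3 without Luc976 library 1 or 3 and 2 without shVHL61 library 2 or 3. Of 37 primary cilium genes 4 rose and 2 fell, and these 6 calls were 3 without Luc976 library 1 or 3, 2 without shVHL61 library 2 and 3 without shVHL61 library 3. In a separate list of 9 metallothioneins 2 rose (22.2% called), MT1E and MT1G, whose reads near copies can share. These calls were 0 without shVHL61 library 2 and 1 without shVHL61 library 3.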
